A study of Mus musculus with 9 samples.

Results

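The miR-181 family was followed through 3 fat depots of mice on a high-fat diet. Its members were all rows of the table whose name begins with miR-181, and there were 10 of them among 1251 miRNAs. Of these, 4 were guide (5p) strands and 6 were passenger (3p) strands. The 9 small RNA libraries came from male C57BL/6J mice. They were 5 to 6 weeks old when they entered the study, were fed a high-fat diet (HFD), with 45% of energy from fat, for 11 weeks after acclimation, and were fasted for 4 hours before tissue collection. The labels give their final age as 16 to 17 weeks, without the time of acclimation. There were 3 libraries each of interscapular brown adipose tissue (BAT), inguinal subcutaneous adipose tissue (SAT) and epididymal visceral adipose tissue (VAT), named here by the numbers in their titles (BAT 12, 15 and 20, SAT 14, 19 and 20, VAT 14, 17 and 20). All groups shared the diet, so the depots were compared on HFD only. Values are log2 of normalised expression, with a lowest value of 3.32 that stands for no or few reads, and 1 unit is a doubling.

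The depot labels were checked against miRNAs known for each tissue. The summed log2 level of 4 brown fat miRNAs was 17.35 to 18.84 in BAT, 15.16 to 15.23 in SAT and 15.67 to 16.27 in VAT. The sum of 3 miRNAs of the Hox clusters was 13.76 to 15.02 in BAT, 16.21 to 16.93 in SAT and 16.73 to 17.78 in VAT. On both sums the BAT libraries stood apart from all libraries of the white depots, but not every miRNA of the lists did so. The Hox sum was carried by miR-10b-5p. In VAT 14, miR-196a-5p was at 3.96 and miR-196b-5p at 3.32, near their levels in BAT 12 and BAT 15. Both miR-196 strands were at 8.16 to 9.57 in VAT 17 and VAT 20. In BAT 20, miR-196b-5p was at 7.55, and miR-365-3p of the brown fat list was at 11.05, within the range of the white depots. Of the members, 7 exceeded the lowest value in at least 3 libraries and were tested, together with 336 other miRNAs. The 3 others, miR-181b-1-3p, miR-181b-2-3p and miR-181d-3p, were at the lowest value in every library. Sequenced pieces of whole fat pads hold many cell types, and fewer cells of a type and less RNA per cell cannot be told apart in them.

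A miRNA gene is transcribed into a hairpin whose 2 arms are cut out as a duplex. One strand, the guide, is kept in the silencing complex, where its seed (bases 2 to 8) pairs with target mRNAs, while the other strand, the passenger, is mostly degraded. The miR-181 guides are known for roles in lymphocyte development and in the vascular endothelium, and miR-181 has also been studied in white adipose tissue. Guides with one seed can share targets, and the passengers, with other seeds, cannot be assumed to.

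The 4 guides are shown because they have the same seed, in capitals, and differ from each other only outside it. The sequences are the mature miRNAs of RefSeq (GRCm38.p6), in which all 10 members were found.
miR-181a-5p: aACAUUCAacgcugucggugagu
miR-181b-5p: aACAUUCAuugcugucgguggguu
miR-181c-5p: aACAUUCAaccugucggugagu
miR-181d-5p: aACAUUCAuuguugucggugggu

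Counted from 1 at the 5′ end, miR-181b-5p differed from miR-181a-5p by A9U, C10U and A21G over 23 shared positions and had 1 base more. Between miR-181b-5p and miR-181d-5p the only substitution over 23 positions was C12U. The sequence of miR-181c-5p was that of miR-181a-5p without the G at position 11. No mature miRNA name outside the family had this seed in the RefSeq table.

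The 3 passengers that were tested are shown because 2 of them come from hairpins that carry the same guide. Their seeds are again in capitals.
miR-181a-1-3p: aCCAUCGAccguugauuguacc
miR-181a-2-3p: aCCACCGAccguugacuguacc
miR-181c-3p: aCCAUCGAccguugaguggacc

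The passenger miR-181a-2-3p differed from miR-181a-1-3p by U5C, which lies in the seed, and by U16C. By contrast miR-181c-3p had the seed of miR-181a-1-3p and differed from it by U16G and U19G. The hairpins of the 2 miR-181a genes are printed with both mature arms in capitals, the guide first, because the guide does not show which gene it came from while the passenger does.
Mir181a-1: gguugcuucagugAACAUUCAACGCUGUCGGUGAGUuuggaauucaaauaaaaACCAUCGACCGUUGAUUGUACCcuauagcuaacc
Mir181a-2: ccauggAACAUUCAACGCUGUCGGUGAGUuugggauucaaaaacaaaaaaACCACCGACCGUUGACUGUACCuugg

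The genes lie in 3 pairs on the mouse genome (GRCm38, GENCODE M21). Mir181a-1 (chr1:137966455-137966541, plus strand) and Mir181b-1 lay 97 bases apart in an intron of the non-coding gene Gm4258, on its strand, and overlapped an exon of the lincRNA A430106G13Rik. Mir181a-2 (chr2:38852735-38852810, plus strand) and Mir181b-2 lay 1019 bases apart within an intron of Nr6a1, which encodes a nuclear receptor and is transcribed from the opposite strand. Mir181c (chr8:84178873-84178961, minus strand) and Mir181d (chr8:84178716-84178787, minus strand) lay 85 bases apart in an intron of Nanos3, on its strand. The guides miR-181a-5p and miR-181b-5p therefore each have 2 genes, and reads of these guides cannot be divided between them.

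The guide miR-181a-5p was among the most abundant miRNAs of every library. Its log2 level was 16.38, 16.72 and 16.90 in BAT 12, 15 and 20, 17.58 in each SAT library, and 16.51, 17.20 and 16.18 in VAT 14, 17 and 20. It had rank 3 in all SAT libraries, ranks 5 to 8 in BAT and ranks 4 to 9 in VAT, and no SAT library overlapped BAT or VAT. The identical values in SAT go with the identical rank, since the libraries of this table have nearly the same value at the same rank, and the SD of 0 there is no measure of biological spread.

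Compared with BAT, miR-181a-5p was higher in SAT by 0.92 on the log2 scale (SE 0.16, limma adjusted p = 0.00971, 1.89-fold, n = 3 and 3). This call was lost with no filter on low values and on values relative to miR-191-5p, with an adjusted p of up to 0.172. The SE draws on the SD of 0 in SAT, as does that of VAT against SAT below, and may be too small. The fold itself follows the values that this table holds at the ranks of miR-181a-5p, and need not be that of the reads. The VAT mean was 16.63 ± 0.52 (SD, n = 3) and the BAT mean 16.67 ± 0.27, a log2 difference of -0.04 with a 95% interval from -0.85 to 0.77. Between VAT and SAT the log2 difference was -0.95 (SE 0.28), and it did not pass the threshold after adjustment (limma adjusted p = 0.0863), although the libraries did not overlap. Without VAT 17, the VAT library with the highest level, the adjusted p of this comparison was 0.0263. The order of the means was SAT, then BAT and VAT, and the latter pair did not differ beyond their spread.

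The guide miR-181d-5p was the least abundant of the 4 and was higher in both white depots. Its log2 level was 5.80, 6.59 and 6.47 in the BAT libraries, 8.14, 7.54 and 7.64 in SAT, and 7.96, 7.87 and 7.87 in VAT. Every white fat library was above every BAT library. The level in VAT was 3.06-fold that in BAT (log2 difference 1.61, SE 0.28, limma adjusted p = 0.0029) and the level in SAT 2.80-fold (1.49, SE 0.29, adjusted p = 0.0141). The SAT call was lost with no filter, relative to miR-191-5p and with a replicate block by library order, with an adjusted p of up to 0.0977. SAT and VAT did not differ beyond their spread (log2 difference 0.13, limma adjusted p = 0.672).

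For miR-181b-5p the BAT libraries were at 10.87, 11.38 and 12.25, the SAT libraries at 12.20, 12.74 and 12.50, and the VAT libraries at 12.25, 12 and 12.25. BAT 20 lay within the range of the white depots and the other BAT libraries below it. The log2 difference from BAT was 0.98 in SAT (95% interval -0.07 to 2.03, limma adjusted p = 0.116) and 0.67 in VAT (-0.26 to 1.60, adjusted p = 0.164). Without BAT 20 both passed the threshold, at 1.35 (adjusted p = 0.0218) and 1.05 (adjusted p = 0.014).

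In BAT, miR-181c-5p was at 10.79, 11.48 and 10.53, while the SAT libraries were at 11.75, 11.56 and 11.51 and the VAT libraries at 11.10, 11.29 and 11.34. All SAT libraries lay above all BAT and all VAT libraries, by small margins. The log2 difference of SAT from BAT was 0.68 (95% interval -0.04 to 1.40, limma adjusted p = 0.116), and it passed without BAT 15 (0.95, adjusted p = 0.0144). That of VAT from BAT was 0.31 (adjusted p = 0.389), and that of VAT from SAT was -0.37 (adjusted p = 0.0966).

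**Figure D1:**
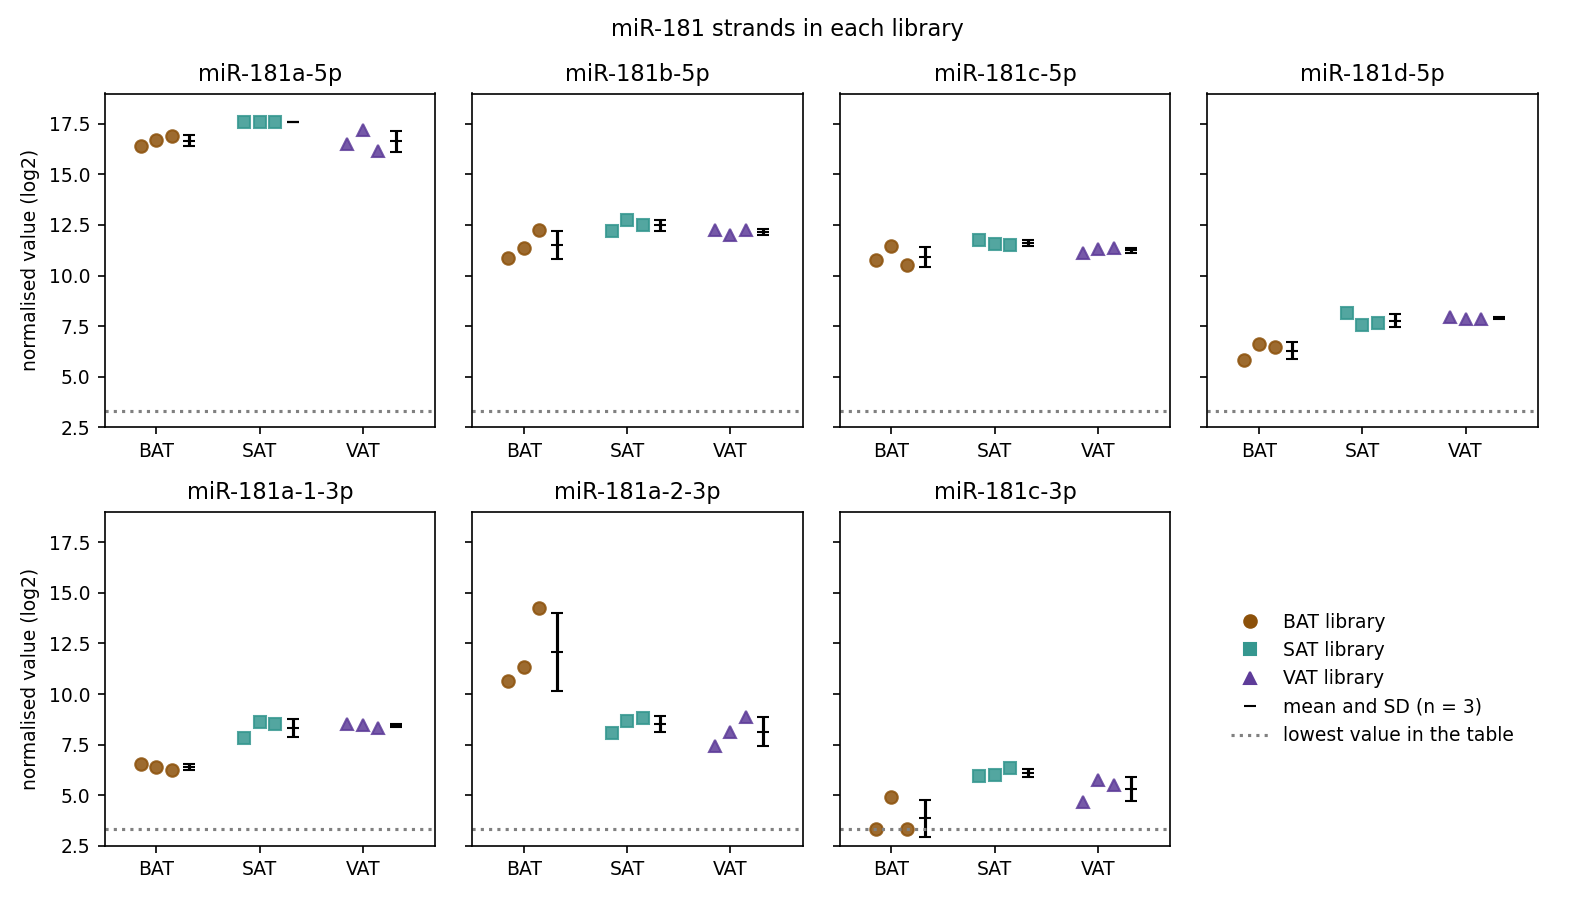
Log2 normalised level (vertical axis) of the 7 tested miR-181 strands in each library of BAT (circles), SAT (squares) and VAT (triangles), with the mean and SD of 3 libraries and the lowest value of the table as a dotted line. The miR-181a-5p points of SAT lie together at 17.58, the miR-181d-5p and miR-181a-1-3p points of BAT lie below those of both white depots, and the miR-181a-2-3p points of BAT lie above them and are spread from 10.65 to 14.24.

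Summed over the 4 guides, the family's level followed miR-181a-5p. The log2 sum had a mean of 16.73 ± 0.27 for BAT, 17.65 ± 0.01 for SAT and 16.73 ± 0.48 for VAT (SD, n = 3 each), and it differed between depots by an exact permutation test over 1680 assignments of the libraries (F = 8.11, p = 0.0464). The SAT SD of 0.01 follows the identical miR-181a-5p values there. It is no measure of biological spread, though it enters this F. The guides made up 8.50, 8.57 and 8.52% of the summed linear values in the SAT libraries, against 3.69 to 5.37% in BAT and 3.40 to 6.54% in VAT. Libraries of this table have nearly the same value at the same rank. These percentages, and the shares within the family below, therefore follow ranks and need not be shares of the reads. The depot difference in the log2 sum is close to the threshold. On values relative to miR-191-5p of the same library the exact permutation p was 0.15, and leaving out single libraries gave 0.0143 to 0.0893.

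Within the family sum, miR-181a-5p held 90.6 to 95.9% in every library. The mean share of miR-181b-5p was 2.74% for BAT, 2.81% for SAT and 4.47% for VAT, and that of miR-181c-5p 1.87, 1.52 and 2.30%. The share of miR-181d-5p averaged 0.063% over the BAT libraries, 0.104% over SAT and 0.218% over VAT. The paper describes scaling to usable reads and also names RPKM, a unit per length. Whether these values were divided by length is therefore unclear, and the guides are 22 to 24 bases long.

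In both comparisons with BAT the largest difference within the family was that of a passenger, and the 2 passengers of the miR-181a genes differed in opposite directions. In BAT, miR-181a-1-3p was at a log2 level of 6.52, 6.40 and 6.23, while the SAT libraries were at 7.83, 8.62 and 8.53 and the VAT libraries at 8.50, 8.45 and 8.34. The white depots lay above BAT without overlap. It was 4.13-fold higher in VAT (log2 difference 2.05, SE 0.21, limma adjusted p = 0.000426) and 3.85-fold higher in SAT (1.94, SE 0.25, adjusted p = 0.00422). Both calls held in all 17 alternative settings of the fit.

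By contrast, miR-181a-2-3p was highest in BAT. Its log2 level was 10.65, 11.34 and 14.24 in BAT 12, 15 and 20, 8.09, 8.67 and 8.79 in SAT, and 7.42, 8.11 and 8.88 in VAT. No white fat library reached the lowest BAT library. The level was 15.3-fold lower in VAT (log2 difference -3.94, SE 0.97, limma adjusted p = 0.0124) and 11.8-fold lower in SAT (-3.56, SE 1.03, adjusted p = 0.048). The BAT libraries spanned 3.59 on the log2 scale, and only 16 of the 343 tested miRNAs spanned more there, against a median of 0.90.

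The size of these differences rested in part on BAT 20. Without it they were -2.86 in VAT (limma adjusted p = 0.00492) and -2.47 in SAT (adjusted p = 0.0112). The calls were less stable than those of miR-181a-1-3p: the VAT call held in 13 of 17 alternatives and the SAT call in 8 of 17. Leaving out VAT 14 or VAT 17 gave adjusted p values of 0.0651 and 0.0509, and leaving out BAT 15, SAT 14, SAT 19 or SAT 20 gave 0.0812, 0.136, 0.121 and 0.118.

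BAT 20 was also the library with the highest level of skeletal muscle miRNAs. The log2 sum of miR-1a-3p, miR-133a-3p, miR-133b-3p and miR-206-3p was 10.09, 17.21 and 18.68 in BAT 12, 15 and 20, 9.84, 10.78 and 9.84 in SAT 14, 19 and 20, and 9.84, 12.59 and 17.21 in VAT 14, 17 and 20. None of the 3 muscle miRNAs that were tested passed the threshold in any comparison. In BAT 12 the muscle sum lay within the range of SAT, and miR-181a-2-3p was at 10.65, above all white fat libraries. In VAT 20 the muscle sum was as high as in BAT 15, and miR-181a-2-3p was at 8.88, the highest of the white fat libraries. The sum was carried by miR-133a-3p, at 17.2 in both of these libraries. The level of miR-133b-3p was also alike, at 9.59 in BAT 15 and 9.76 in VAT 20. By contrast miR-206-3p was at 8.17 in BAT 15 and 3.63 in VAT 20, and miR-1a-3p was at or near the lowest value in both. Within BAT and within VAT the order of the libraries was the same for the muscle sum and miR-181a-2-3p. Within SAT it was not, with the highest muscle sum in SAT 19 and the highest miR-181a-2-3p in SAT 20. The part of muscle RNA in the level of miR-181a-2-3p was not tested.

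**Figure D2:**
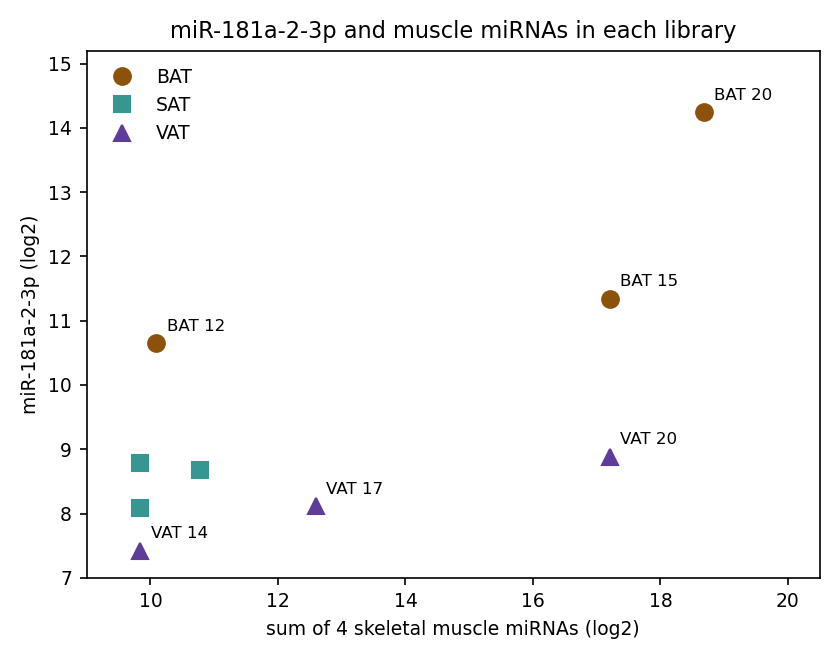
Log2 level of miR-181a-2-3p (vertical axis) against the log2 sum of 4 skeletal muscle miRNAs (horizontal axis), 1 point per library, with BAT and VAT libraries named. BAT 12 has a muscle sum of 10.09, near those of SAT, and lies above every white fat library, while BAT 15 and VAT 20 have the same muscle sum of 17.21 at levels of 11.34 and 8.88. The sum is carried by miR-133a-3p.

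The passenger of miR-181c was near the lower end of the table. In BAT its log2 level was 3.32, 4.92 and 3.32, so that 2 of 3 libraries were at the lowest value. The SAT libraries were at 5.94, 6.01 and 6.33 and the VAT libraries at 4.65, 5.75 and 5.49. SAT lay above both other depots without overlap. The level was higher in SAT than in BAT (log2 difference 2.24, SE 0.50, limma adjusted p = 0.0222), a size that depends on the lowest value, and this call held in 8 of 16 alternatives. It was lost without BAT 12, BAT 20 or any single SAT library, with adjusted p between 0.00152 and 0.15 over the alternatives. The log2 difference of VAT from BAT was 1.44 (adjusted p = 0.0535) and of VAT from SAT -0.80 (adjusted p = 0.156).

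The counts of strands that passed the test were read against those of all miRNAs. Between VAT and BAT, 3 of the 7 tested members had a limma adjusted p under 0.05, 2 higher in VAT and 1 lower, whereas 66.2% of all tested miRNAs did, 39.4% higher and 26.8% lower. The ranges of the libraries were separate for 3 members and for 72% of all tested miRNAs. The members' median log2 difference was 0.67, beside 0.40 over all tested miRNAs.

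Between SAT and BAT, 5 members passed, 4 higher in SAT and 1 lower, and the background was 40.5%, of which 22.4% higher and 18.1% lower. The libraries did not overlap for 6 members, against 52.5% of all tested miRNAs. The median log2 difference was 0.98 for the members and 0.26 for all. The guides called were miR-181a-5p and miR-181d-5p in SAT, and miR-181d-5p alone in VAT. Both comparisons used the same BAT libraries.

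**Figure D3:**
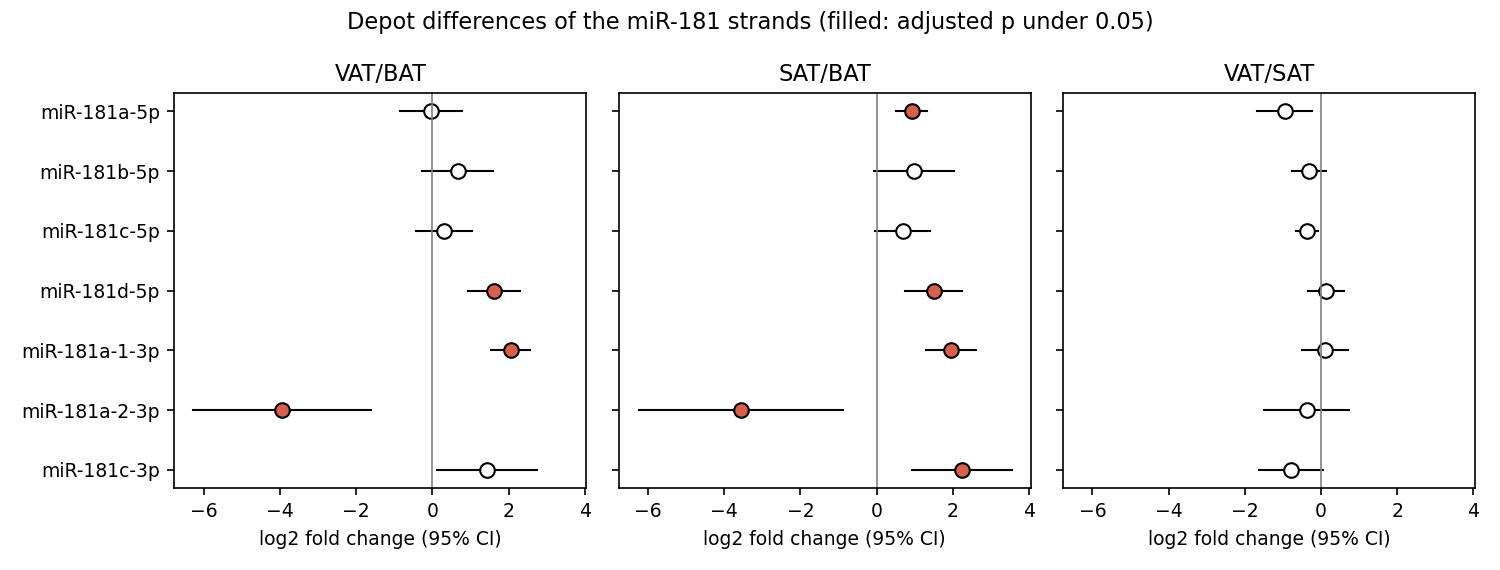
Log2 fold change (horizontal axis) with its 95% interval for each tested miR-181 strand in VAT against BAT, SAT against BAT and VAT against SAT, with filled points at an adjusted p under 0.05. In both comparisons with BAT, miR-181a-2-3p lies far to the left, at -3.94 and -3.56, and miR-181a-1-3p to the right, at 2.05 and 1.94, while no point is filled for VAT against SAT.

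Between VAT and SAT, 0 of 7 members passed, with limma and also in a test without moderation, where 16% of all miRNAs passed with limma, 8.45% higher in VAT and 7.58% lower. At an unadjusted p under 0.05 there were 2 members in either test. The libraries did not overlap for 3 members, miR-181a-5p, miR-181c-5p and miR-181c-3p, all lower in VAT, against 39.4% of all tested miRNAs. The members' median log2 difference was -0.37 and that of all miRNAs 0.10.

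Over all 3 depots, 5 of 7 members passed limma's F test, where 65.9% of all tested miRNAs did. These were miR-181a-1-3p (adjusted p = 0.000341), miR-181d-5p (0.00209), miR-181a-2-3p (0.00713), miR-181c-3p (0.01) and miR-181a-5p (0.0315). For miR-181b-5p and miR-181c-5p the adjusted p was 0.0873 and 0.136. The share of members called was thus below the background between VAT and BAT and between VAT and SAT, near it in the F test and above it between SAT and BAT. With a replicate block by library order, 2 members and 120 of all 343 miRNAs passed between SAT and BAT, a member share below the background. With only 7 strands, some of them from the same hairpin, these counts cannot show whether the family departs from the background.

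**Figure D4:**
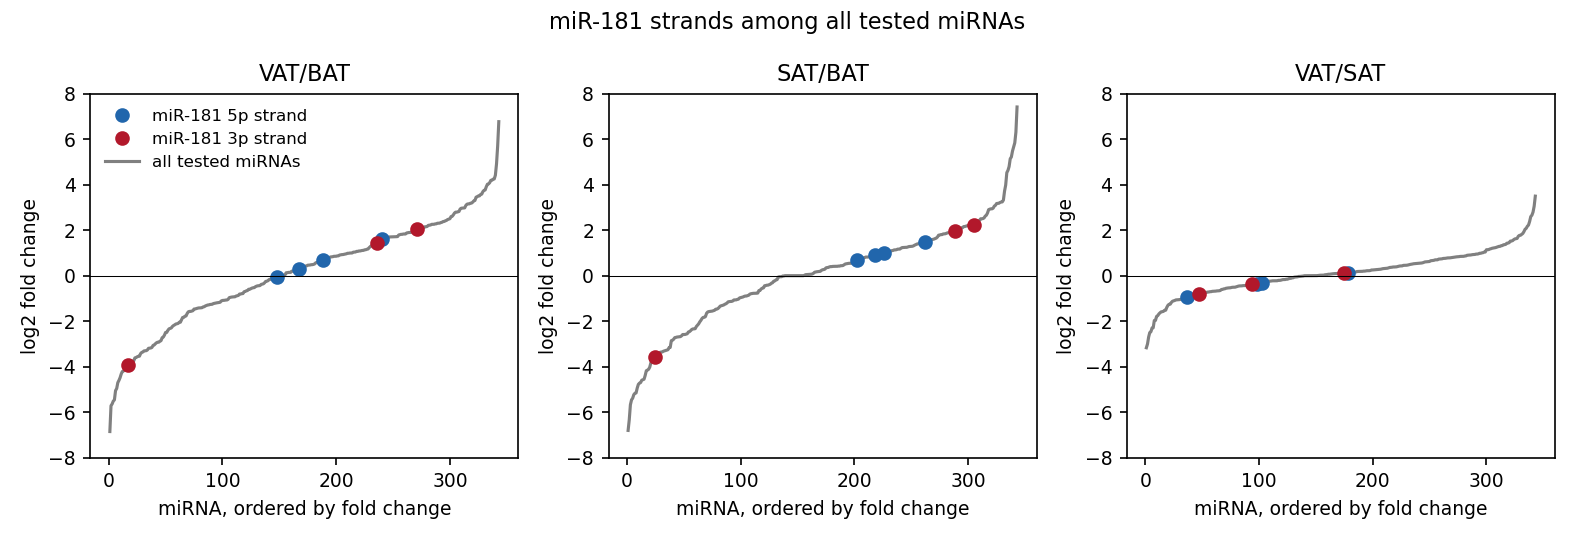
Log2 fold change (vertical axis) of all 343 tested miRNAs ordered by size (grey line), with the miR-181 guides in blue and passengers in red, for the 3 comparisons. The guides lie in the middle of the range, between -0.95 and 1.61, and miR-181a-2-3p lies near the lower end in both comparisons with BAT.

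A ratio between strands of one library does not depend on a single scaling factor of that library. It can still depend on an added offset and on a normalization by rank, of which this table has the pattern. In all, 9 ratios were compared over the depots by exact permutation, where the smallest possible p is 0.00357. Of these, 5 had an adjusted p under 0.05 (Benjamini-Hochberg over the 9). The guide miR-181a-5p exceeded miR-181d-5p by 10.38 on the log2 scale in BAT, 9.81 in SAT and 8.73 in VAT (exact permutation p = 0.00357, adjusted p = 0.0107). The miR-181c-5p to miR-181d-5p ratio, of guides from neighbouring hairpins, went from 4.64 in BAT to 3.83 in SAT and 3.34 in VAT, with the same p values. The other 4 ratios between guides did not pass, with exact permutation p from 0.139 to 0.764. Leaving out libraries changed these counts: without SAT 14 none of the 9 ratios passed, and without BAT 20, SAT 19, SAT 20 or VAT 20 there were 2.

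The passenger to guide ratios differed for all 3 pairs. The log2 ratio of miR-181a-1-3p to miR-181a-5p averaged -10.28 for BAT, -9.25 for SAT and -8.20 for VAT (exact permutation p = 0.00357, adjusted p = 0.0107). That of miR-181c-3p to miR-181c-5p averaged -7.07 for BAT, -5.51 for SAT and -5.94 for VAT, with 2 BAT libraries at the lowest value of miR-181c-3p (exact p = 0.0143, adjusted p = 0.0321). For miR-181a-2-3p to miR-181a-5p the BAT libraries were at -5.73, -5.38 and -2.66, the SAT libraries at -9.49, -8.91 and -8.79, and the VAT libraries at -9.08, -9.09 and -7.30. Its BAT libraries were all above the white ones (exact p = 0.0214, adjusted p = 0.0386), and without BAT 20 the adjusted p was 0.102. Of 11 alternatives, the ratio of miR-181a-1-3p to its guide passed in 9, that of miR-181a-2-3p in 5 and that of miR-181c-3p in 4.

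The 2 passengers of the miR-181a genes were also set against each other, a pair chosen after its values were seen and so given without a test. In BAT 12, 15 and 20, miR-181a-2-3p was 17.6-, 30.6- and 258-fold above miR-181a-1-3p. In the SAT libraries the log2 ratio was 0.26, 0.06 and 0.26, and in VAT -1.07, -0.35 and 0.54. The 2 strands were thus at like levels in white fat and far apart in BAT.

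**Figure D5:**
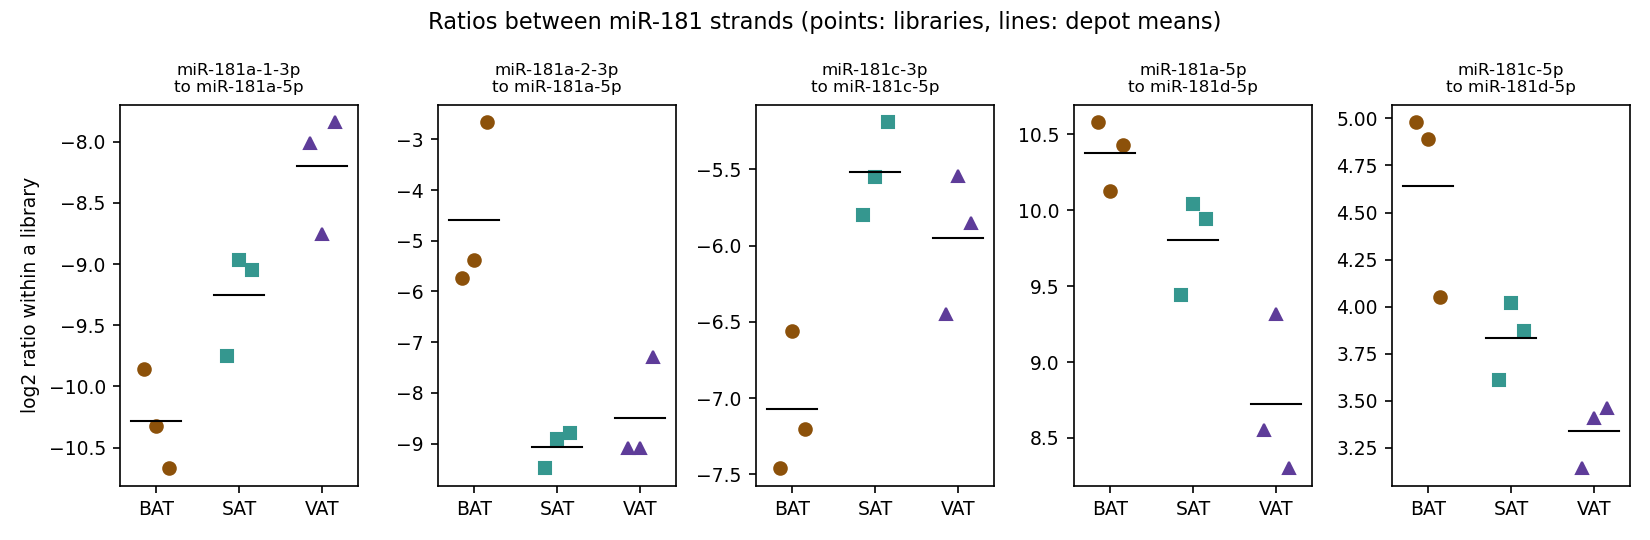
Log2 ratio between 2 miR-181 strands within a library (vertical axis, on a scale of its own in each panel) for the 5 ratios with an adjusted p under 0.05, with points for the libraries of each depot and a line at the depot mean. The ratio of miR-181a-1-3p to its guide is lowest in BAT (mean -10.28), while that of miR-181a-2-3p to the same guide is highest there (mean -4.59).

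The miRNAs whose levels ran most alike to each guide over the 9 libraries were taken by Pearson's r among the other 342 tested miRNAs, as a description over libraries that share depots and scaling. For miR-181a-5p they were let-7d-5p (r = 0.942), miR-574-5p (0.908) and miR-615-3p (0.82). The level of let-7d-5p was 14.24 to 14.52 in SAT, 13.69 to 14.05 in BAT and 13.63 to 14.05 in VAT, and thus highest in SAT as well. The other guides ranked 30th (miR-181b-5p), 31st (miR-181c-5p) and 58th (miR-181d-5p) in likeness to miR-181a-5p.

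For miR-181d-5p the nearest were miR-335-3p (r = 0.976), miR-199a-5p (0.967) and miR-497-5p (0.955). Of these, miR-199a-5p, known from fibroblasts and other mesenchymal cells, was at 6.56 to 7.97 in BAT, 10.05 to 10.34 in SAT and 10.23 to 10.61 in VAT. For miR-181b-5p they were miR-125b-1-3p (0.86), miR-504-5p (0.837) and miR-340-5p (0.836). For miR-181c-5p they were its own passenger miR-181c-3p (0.91), miR-99b-3p (0.905) and miR-23b-3p (0.895). No guide was among the 3 nearest of another guide.

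Among the passengers, which were added after their values were seen, miR-181a-1-3p ran most like miR-130a-3p (r = 0.985) and miR-181a-2-3p most like miR-486-3p (r = 0.969). The level of miR-486-3p was 8.25 to 12.34 in BAT, 6.01 to 6.34 in SAT and 6.34 to 7.12 in VAT. Between the 2 passengers r was -0.871, and between miR-181a-2-3p and its guide it was -0.224.

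The nearest other miRNA genes to Mir181c and Mir181d are those of the miR-23a, miR-27a and miR-24-2 cluster, 29.6 kb away on the opposite strand. Of its 6 mature strands, 5 were tested and miR-23a-5p was at the lowest value in all libraries. In VAT 3 were higher and 1 lower than in BAT, in SAT 2 were higher and 1 lower, and between VAT and SAT none passed limma's test. The log2 difference of miR-24-3p from BAT was 1.81 in VAT (adjusted p = 0.00209) and 1.43 in SAT (adjusted p = 0.00971), beside 1.61 and 1.49 for miR-181d-5p. The strand that was lower was miR-27a-5p, by -0.88 in VAT (adjusted p = 0.0253) and -1.80 in SAT (adjusted p = 0.0138). Mature miR-24-3p also has a gene elsewhere in the genome.

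Markers of other cell types moved with the depots as well. Of 5 fibroblast and smooth muscle miRNAs, 3 were higher in each white depot than in BAT and 1 was higher in VAT than in SAT, and their log2 sum was 14.60 to 15.10 in BAT, 16.51 to 16.73 in SAT and 16.73 to 16.87 in VAT. Both endothelial strands of miR-126 were higher in both white depots, with sums of 11.53 to 12.23 in BAT, 13.27 to 13.61 in SAT and 13.54 to 13.64 in VAT. The sums of these lists have the same order of BAT against white fat as miR-181d-5p and miR-181a-1-3p. In the fibroblast list, miR-214-3p and miR-145a-5p passed in no comparison. Their log2 differences from BAT were -0.11 and 0.03 in VAT and 0.06 and 0.89 in SAT. Of all tested miRNAs, 39.4% were higher in VAT and 22.4% in SAT than in BAT. The part of these cell types in the levels of miR-181d-5p and miR-181a-1-3p was not tested.

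Of 5 leukocyte miRNAs tested, 4 were higher and 1 lower in VAT than in BAT, 1 was higher in SAT than in BAT and 1 higher in VAT than in SAT, with miR-155-5p at the lowest value in all libraries. Their log2 sum was 14.31 to 14.75 in BAT, 13.03 to 14.33 in VAT, and 13.70, 13.93 and 16.79 in SAT 14, 19 and 20. This sum was carried by miR-150-5p, at 16.72 in SAT 20, which is the strand that was lower in VAT (log2 difference -1.41). The sum therefore does not show the 4 strands that were higher in VAT, among them miR-223-3p (6.76) and miR-142-5p (4.01). In SAT 20 the level of miR-181a-5p was the same as in SAT 14 and SAT 19. That equality goes with its rank of 3 in each of them, so it cannot show whether miR-181a-5p varied with the leukocyte miRNAs. The epithelial sum was 0 in BAT, 14.35, 5.30 and 6.33 in SAT 14, 19 and 20, and 2.97 to 10.22 in VAT, where 0 means that all 6 miRNAs were at the lowest value, and neither of the 2 tested passed. The sum of 4 neuronal miRNAs was 7.63 to 10.22 in BAT, 7.64 to 8.28 in SAT and 8.22 to 8.53 in VAT, with miR-124-3p and miR-9-3p at the lowest value everywhere, and miR-128-3p, the only one tested, passed in no comparison. Of the brown fat miRNAs, 3 of 4 were lower in each white depot than in BAT and 1 was higher in VAT than in SAT. Of the Hox-cluster miRNAs, 2 of 3 were higher in VAT and all 3 in SAT than in BAT.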

How the data were processed

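Small RNA of 9 libraries, 3 per depot, was analysed from the deposited table. The authors mapped reads to miRBase precursors, counted those that fell on mature miRNAs, with reads of more than 1 origin split proportionally, scaled each library to its usable total and added 40 to the counts. As deposited by the authors, values are log2, with a lowest value of 10 before log2, and the submitters' notes name build mm10. Over the 100 highest ranks the libraries had values within 0.05 of each other at 80 ranks, the pattern that quantile normalization leaves. The described scaling and added 40 do not account for this pattern or for the lowest value of 10. How the deposited values were normalised is therefore unsettled. The aligner's version was not given in the sources used here. The table holds no read counts, so depth is unknown, and the spread of 3 libraries is the measure of precision.

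Values were used as deposited. Tested were the 343 of 1251 miRNAs that exceeded the lowest value in 3 or more of the 9 libraries, while 839 were at the lowest in all. Each pair of depots was fitted on its 6 libraries with limma 3.58.1 in R 4.3.3 (two-sided, no covariate, Benjamini-Hochberg adjustment over all 343), and limma's F test covered all 9. Family sums, with the lowest value subtracted on the linear scale, and ratios were tested by exact permutation of the 9 libraries (numpy 2.4.6 in Python 3.11.15), because 3 libraries against 3 cannot go below p = 0.1. The fit was also run on simulated data with independent normal noise and the same spread in every depot. These lacked the lowest value and the rank pattern of the table, so they cannot show how the fit performs here. The labels do not say whether libraries with the same number came from one mouse, or whether a library is 1 animal, so p values cover the spread between these libraries, which may be in part technical.

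Named were all rows beginning with miR-181, the 3 tested miRNAs most like each guide by Pearson's r, and the strands of the Mir23a, Mir27a and Mir24-2 cluster. Lists were also named for brown fat, Hox-cluster miRNAs, skeletal muscle, leukocytes, endothelium, fibroblasts, epithelium and neurons (miR-145-5p was matched as miR-145a-5p). The members and lists were chosen with earlier results of these data known. Alternatives were other filters, offsets, scalings, blocks and left-out libraries. The mRNA sequencing of the study was not analysed here.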

Additional observations from a re-analysis of the deposited data

How the results depend on the processing

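No called difference changed its sign. Differences near 0 that passed no test did, such as miR-181a-1-3p between VAT and SAT (-0.15 to 0.27) and miR-181a-5p between VAT and BAT (-0.32 to 0.19). Of 361 values of single members under alternatives, 324 kept their side of the threshold, 26 lost it and 11 gained it. Members called between SAT and BAT rose from 5 to 6 with all 9 libraries in one fit, and fell to 1 with no filter, 3 with the lowest value subtracted and 1 added, 3 relative to miR-191-5p and 2 with a replicate block by library order, and to between 3 and 5 without single libraries (3 without SAT 14, SAT 19 or SAT 20). Between VAT and BAT the 3 became 2 to 4 without single libraries. Between VAT and SAT the 0 became 1 among the miRNAs with means at or above the median, and 0 to 1 without single libraries. In the F test the 5 became 2 with no filter and 4 to 6 without single libraries. Of the ratios, 0 passed with a further 40 added, and 0 to 5 without single libraries: 0 without SAT 14, and 2 without BAT 20, SAT 19, SAT 20 or VAT 20. The family sum had an exact permutation p = 0.15 relative to miR-191-5p and 0.0143 to 0.0893 without single libraries, over 0.05 or at it without any BAT or SAT library or VAT 14. The causes were not tested.

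Deviations from the depot means correlated at a mean of 0.0464 over the 4 pairs of libraries with the same title number (-0.139 to 0.27). Over the 23 other pairs the mean was -0.00745 (-0.48 to 0.358). With so few pairs, and means of 3 libraries, this check cannot show whether same-numbered libraries came from one mouse. A replicate block by title number called 0 members between VAT and SAT, and, with all 9 libraries in one fit (added after seeing the data), 4 between VAT and BAT, 6 between SAT and BAT and 0 between VAT and SAT. No paired analysis was possible with 6 libraries for BAT, because it shares 1 number with each other depot.

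Over all miRNAs, the count of calls with no filter was 128 between VAT and BAT (227 as reported), 74 between SAT and BAT (139) and 4 between VAT and SAT (55). With only means at or above the median it was 120 between VAT and BAT. The 55 became 2 relative to miR-191-5p (2 higher, 0 lower, against 29 and 26), 30 with all 9 libraries with or without the block, 31 without moderation, 0 with the order block (105 at an unadjusted limma p under 0.05) and 0 to 49 without single libraries: 0 without SAT 19 (104 unadjusted), 5 without VAT 20, 12 without SAT 20 and 23 without VAT 14. Quantile normalization moved the median log2 difference of VAT from BAT from 0.40 to 0.13, and scaling to miR-191-5p that of SAT from BAT from 0.26 to 0.09. For low strands such as miR-181c-3p, the lowest value of the table limits the size of a difference.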
